A study of Mus musculus with 68 samples.

Results

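The 36 genes described here encode the enzymes that handle pyruvate and turn the tricarboxylic acid (TCA) cycle. They comprise 2 lactate dehydrogenase subunits, 2 subunits of the mitochondrial pyruvate carrier, 5 components of the pyruvate dehydrogenase complex, its 4 kinases, pyruvate carboxylase, 12 genes of the steps from citrate to succinate, 7 genes of the steps from succinate to oxaloacetate and 3 malic enzymes. Members were matched by gene symbol, and each of the 36 symbols matched 1 of the 36172 genes in the table.

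Pyruvate made by glycolysis is either exchanged with lactate in the cytosol or carried into the mitochondrion, where the pyruvate dehydrogenase complex converts it to acetyl-CoA. The TCA cycle oxidizes the acetyl group and hands its electrons to the respiratory chain, while pyruvate carboxylase and the malic enzymes add to or draw from the pool of intermediates. Dopamine neurons fire spontaneously and carry very large axonal arbors, so they are regarded as cells with a high demand for mitochondrial energy.

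The transcripts were measured by Patch-seq, in which the contents of 1 electrically recorded neuron are drawn into the recording pipette and sequenced as 1 library. The neurons came from the ventral tegmental area (VTA) of 12-month-old mice of both sexes, with 33 cells from 3xTg mice and 35 from wildtype (WT) mice. 3xTg mice are homozygous for 3 transgenes, among them APP Swe and Tau P301L, which they carry from birth. The strains named for the hybrid background that both lines share are C57BL/6;129×1/SvJ;129S1/Sv and B6;129, and WT mice came from a line kept apart without the transgenes, so line and genotype cannot be told apart. The labels name no mouse for a cell, so each genotype was treated as 1 sample, no p-value is given and a difference between genotypes is a description of these cells. In a single-cell library, less RNA collected and less RNA in the cell cannot be told apart.

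A 3xTg cell held between 676602 and 1678655 counts in all (median 1194544), a WT cell between 492436 and 1327349 (median 982452). Genes with a count numbered 3695 to 10426 in 3xTg cells (median 8511) and 3770 to 10039 in WT cells (median 7476). Depth and genes detected therefore differed with genotype, and their part in the differences below was not tested except where thinned values are given. The label numbers fall into runs of 1 genotype, WT 1 to 22 (17 cells), 3xTg 24 to 55 (21 cells), WT 57 to 74 (15 cells), 3xTg 76 to 92 (12 cells) and WT 94 to 96 (3 cells), and what the numbers mark is not stated. The 4 dopamine neuron markers *Th*, *Slc6a3*, *Slc18a2* and *Ddc* summed to at least 6682 CPM (counts scaled to a cell total of 1000000) in every 3xTg cell and at least 4636 CPM in every WT cell. Of the 3 endothelial markers, *Pecam1* and *Cldn5* were at 0 in all 68 cells. The third, *Flt1*, was counted in 1 cell of each genotype (1.36 CPM in 3xTg, 0.88 CPM in WT). The astrocyte marker *Aldh1l1* was also at 0. The study chose cells as negative for *Pvalb*, *Tmem119*, *P2ry12* and *Aldh1l1*, so this 0 is no finding. In the deposited counts, only 58 of the 68 cells had no count of any of these 4 genes, so that choice did not leave all 4 at 0. The 6 microglial markers summed to 0 to 4211 CPM in 3xTg and 0 to 2869 CPM in WT, the 5 astrocyte markers to at most 272 and 2410 CPM and the 5 oligodendrocyte markers to at most 583 and 2540 CPM. The 4 GABA neuron markers, *Pvalb* among them, were counted in every cell and summed to at most 167 and 267 CPM. Counts of the 2 glutamate neuron markers were found in 8 cells of each genotype, up to 119 and 760 CPM.

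Levels were first compared between the enzyme genes within each genotype, as mean normalized count per kilobase of exon. The count was divided by the cell's size factor, a scale set by 787 genes counted in every cell. *Ldhb*, which favours the conversion of lactate to pyruvate, ranked first in both genotypes at 1475 per kb in 3xTg and 1370 per kb in WT. The cytosolic malate dehydrogenase *Mdh1* came next (1358 and 1014 per kb), and the mitochondrial *Mdh2* (599 and 604 per kb) and the iron-sulfur subunit of succinate dehydrogenase *Sdhb* (499 and 499 per kb) followed. The lowest 2 in both genotypes were *Pdk4*, a kinase that inhibits pyruvate dehydrogenase (1.10 and 1.36 per kb), and *Suclg2*, the GTP-forming subunit of succinate-CoA ligase (1.25 and 0.53 per kb). The enzyme genes thus spanned about 3 orders of magnitude within 1 cell type. *Ldhb*, *Ogdh*, *Mdh1* and *Mdh2* had a count in every one of the 68 cells.

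**Figure D1:**
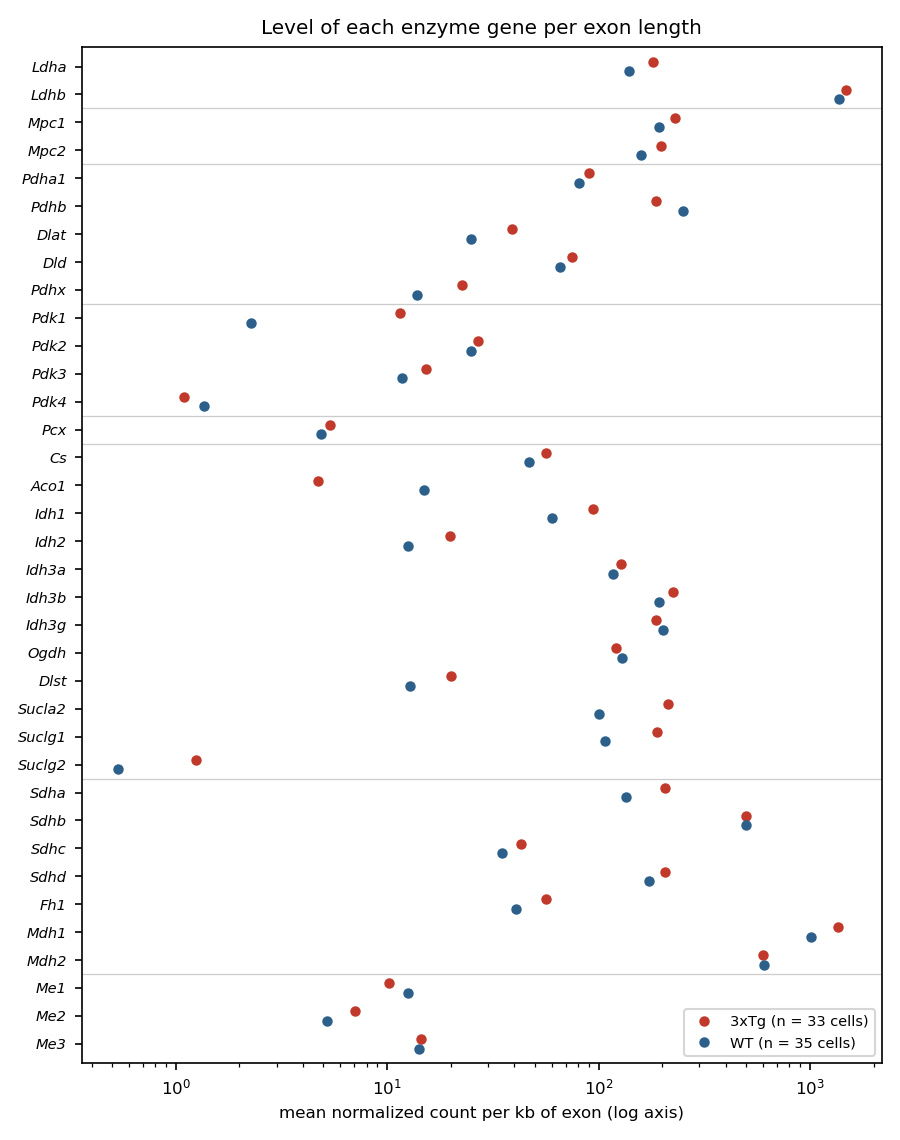
Mean normalized count per kilobase of exon (log axis) of each of the 36 enzyme genes over the 33 3xTg cells (red) and the 35 WT cells (blue), in the order of the pathway; grey lines part the roles. *Ldhb* and *Mdh1* lie farthest to the right in both genotypes and *Pdk4* and *Suclg2* farthest to the left.

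The isozymes of lactate dehydrogenase, malate dehydrogenase, NADP-dependent isocitrate dehydrogenase and succinate-CoA ligase stood in the same order of pooled level in both genotypes. *Ldhb* made up a median of 89.6% of the summed *Ldhb* and *Ldha* level per kb in 3xTg cells and 90.9% in WT cells, and it was above *Ldha* in 66 of 68 cells. *Mdh1* made up a median of 67.6% of the 2 malate dehydrogenases in 3xTg and 65.5% in WT and was the higher one in 60 of 68 cells. *Idh1*, the cytosolic NADP-dependent isocitrate dehydrogenase, gave 82.6% and 82.8% of the pooled level with its mitochondrial counterpart *Idh2*. *Sucla2*, the ATP-forming subunit of succinate-CoA ligase, gave 99.4% and 99.5% of the pooled level with *Suclg2*. These shares differed little between genotypes beside their range over cells, which for *Mdh1* ran from 41% to 92.6% in 3xTg and from 26.9% to 99.8% in WT. Of the malic enzymes, which convert malate to pyruvate, mitochondrial *Me3* had the highest mean level (14.5 and 14.1 per kb), followed by cytosolic *Me1* (10.2 and 12.6 per kb) and mitochondrial *Me2* (7.04 and 5.22 per kb). *Me1* stood within the spread of *Me3*, with *Me3* the higher of the pair in 44 of 65 cells that had either. Their order in WT rested on single cells, since *Me3* gave 44.2% and *Me1* 39.5% of the pooled level of the 3 malic enzymes there, but 36.3% and 45% without WT 20.

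The share of cells with a count of a gene was higher in 3xTg for 27 of the 36 genes, higher in WT for 5 and equal for 4. The 27 genes, or 75%, lay near the background, since the share was higher in 3xTg for 59.2% of expressed genes (a normalized count of 1 in 80% or more of either genotype's cells) and for 71.8% of the 10752 genes with a count in at least 25% of all cells. The share in 3xTg was still the higher one for 25 genes after thinning to 700471 counts a cell, a depth that 31 3xTg and 30 WT cells reached, against 63.3% and 71.6% of the same genes. Among the 25 enzyme genes that were expressed these counts were 17, and 15 after thinning, so the latter share lay below that of expressed genes. Among the widest gaps, *Fh1*, which encodes fumarase, had a count in 29 of 33 3xTg cells (87.9%, 95% Clopper-Pearson interval 71.8 to 96.6%) and in 21 of 35 WT cells (60%, 42.1 to 76.1%). *Pdk1*, a kinase induced by low oxygen in many cells, was counted in 29 3xTg cells (87.9%) and 21 WT cells (60%). *Pdk3* was counted in 19 3xTg cells (57.6%, 39.2 to 74.5%) and 9 WT cells (25.7%, 12.5 to 43.3%), and *Idh2* in 18 (54.5%) and 9 (25.7%). The gene with the widest gap in the other direction was *Idh3g*, a regulatory subunit of the NAD-dependent isocitrate dehydrogenase, with 28 3xTg cells (84.8%, 68.1 to 94.9%) and 33 WT cells (94.3%, 80.8 to 99.3%). *Suclg2* had a count in 3 cells of each genotype. These intervals cover counting error over cells only and do not cover differences between mice. The Poisson intervals of summed counts given below take every count as independent. Since the reads were amplified by PCR without stated molecular identifiers, they may be too narrow even for counting error. They also cover no spread between cells or mice.

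**Figure D2:**
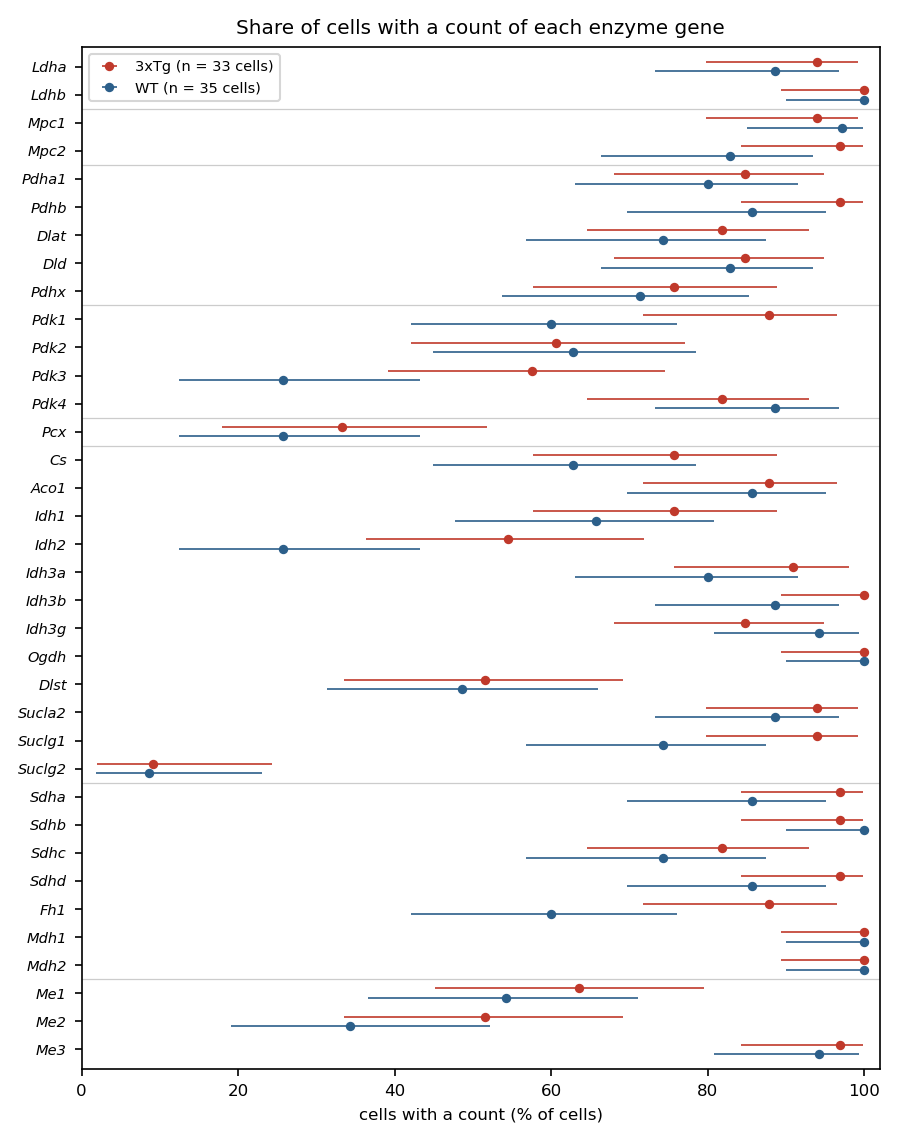
Share of cells with a count of each enzyme gene in 3xTg (red, 33 cells) and WT (blue, 35 cells), with exact 95% binomial intervals as bars; grey lines part the roles. *Fh1*, *Pdk1*, *Pdk3* and *Idh2* show the widest gaps toward 3xTg, and the intervals of the 2 genotypes overlap for every gene.

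To compare levels between genotypes, log2(normalized count + 1) was averaged over the cells of each. Genes were called expressed where 80% or more of either genotype's cells reached a normalized count of 1. The median of these 3988 genes was 0.47 higher in 3xTg on this scale, and differences are given relative to it. A relative difference of at least 1, a fold of 2, was counted as past the fold, and beside it the log2 ratio of summed counts as CPM was counted past a fold of 1.5. Of the 36 enzyme genes, 25 were among the expressed genes, and 35 had a count in at least 25% of all cells. By the mean over cells, 7 of 36 were past the fold toward 3xTg, against 13.1% of expressed genes, and 1 toward WT, against 6.04%. The filter on expressed genes reads the genotype, and among the 10752 genes with a count in at least 25% of all cells the shares were 11% and 4.69%. By summed counts, 4 of 36 were past the fold toward 3xTg, against 9.88% of expressed genes, and 1 toward WT, against 13% of them (17.4% and 20.9% of the 10752 genes). Both measures placed 3 genes past the fold toward 3xTg, *Pdhx*, *Sucla2* and *Suclg1*, against 6.37% of expressed genes, and none toward WT, against 4.96% (6.58% and 4.22% of the 10752 genes). Among the 25 expressed members, 5 were past the mean fold toward 3xTg and 1 toward WT, and 3 and 1 past that of summed counts. Both measures placed 2 of them toward 3xTg, since *Pdhx* was not among the expressed genes, and 0 toward WT.

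The direction of the smaller differences depended on the cells compared. The relative difference was above 0 for 26 of 36 genes, against 50% of expressed genes by construction, with a median of 0.40. The log2 ratio of summed counts was above 0 for 27 of 36 genes, against 47.9% of expressed genes, with a median of 0.15 beside -0.03 for expressed genes, and for 17 of the 25 expressed members. In the first long runs of label numbers (3xTg 24 to 55 against WT 1 to 22) it was above 0 for only 17 of 36 genes, against 58.5% of expressed genes, with a median of -0.03. For all 36 genes the difference between the genotype means was smaller than the SD over cells in either genotype, as it was for 96.9% of expressed genes and 98% of the 10752 genes. The cells of the 2 genotypes overlapped for every gene. Thinned to the same total count a cell, which does not equalize the number of genes detected, 6 genes were past the mean fold toward 3xTg and 1 toward WT, with *Mpc2* below it at 0.62. Among the 57 cells with at least 5000 genes these were 5 and 0, with *Mpc2* (0.98), *Sucla2* (0.91), *Sdha* (0.70) and *Idh3g* (-0.21) no longer past it, and among the 58 cells without a count of *Pvalb*, *Tmem119*, *P2ry12* or *Aldh1l1* they were 7 and 0, with *Pdhx* (0.69) and *Idh3g* (-0.93) no longer past it.

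**Figure D3:**
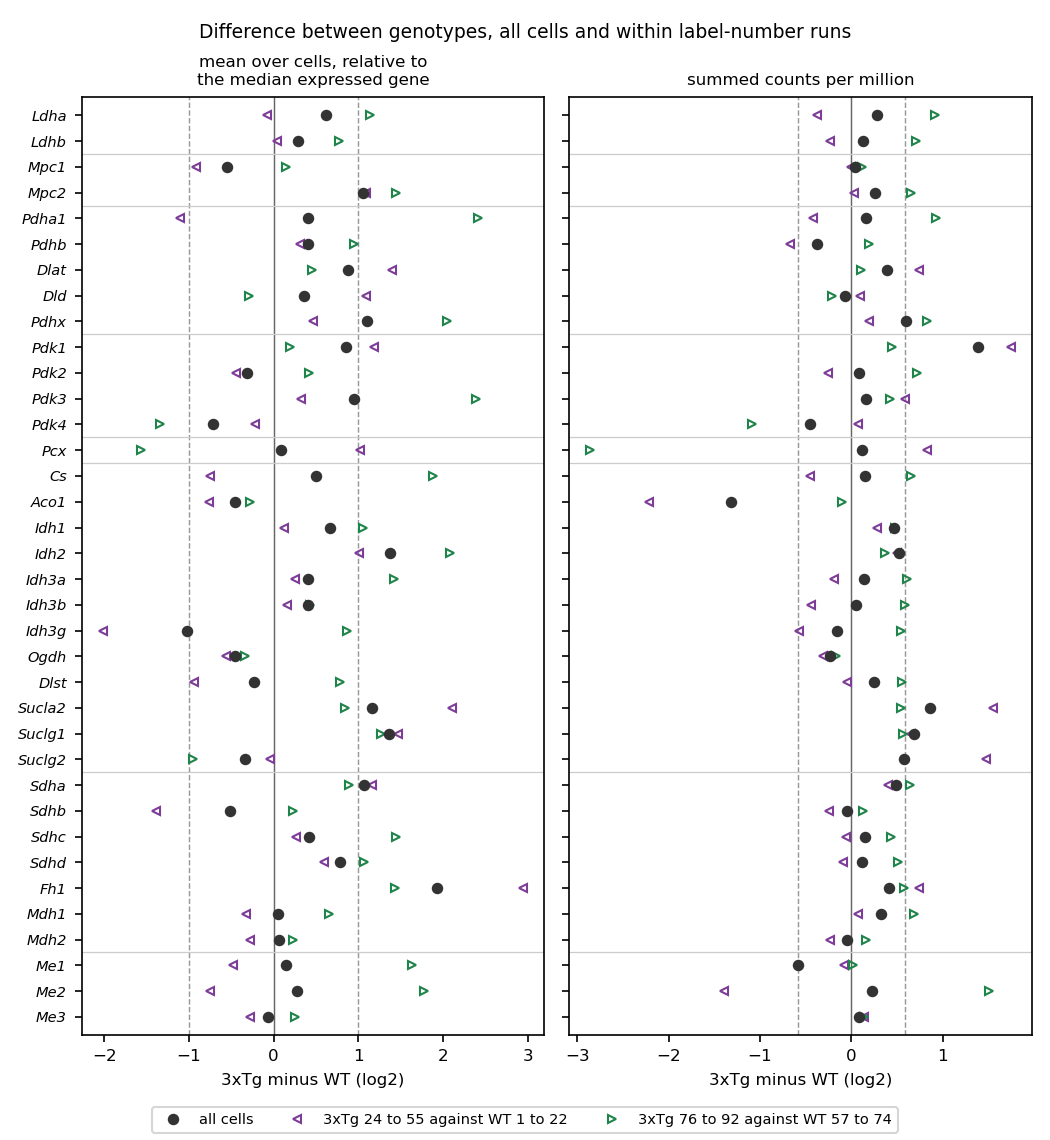
Difference between genotypes for each enzyme gene as the mean over cells relative to the median expressed gene (left) and as the log2 ratio of summed counts as CPM (right), 3xTg minus WT, for all cells (filled circles) and within the first (purple) and second (green) long label-number runs. Dashed lines mark the folds of 2 and 1.5; *Suclg2* has no second-run ratio because no 3xTg cell of that run had a count, and green points lie to the right of purple ones for most genes.

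The lactate dehydrogenase genes were below both folds, and their direction was not the same in every setting. *Ldhb* had log2 values of 7.96 to 12.29 over 3xTg cells (median 10.80) and 2.82 to 13.64 over WT cells (median 10.21). Its means were 10.63 ± 1.02 (SD, 33 cells) and 9.86 ± 2.06 (SD, 35 cells), a relative difference of 0.29, and its summed counts of 68405 and 58190 gave 1863 and 1710 CPM, a ratio of 0.12. *Ldha*, which favours the conversion of pyruvate to lactate, spanned 0 to 10.33 in 3xTg, with a median of 8.14, and 0 to 9.71 in WT, with a median of 7.55. Its means were 7.57 ± 2.28 and 6.47 ± 3.12, with a relative difference of 0.62, 341 and 281 CPM and a ratio of 0.28. The relative difference of *Ldhb* was -0.11 in thinned cells, and that of *Ldha* was -0.07 in the first long runs. In those runs the ratios of summed counts were -0.38 for *Ldha* and -0.24 for *Ldhb*, against 0.92 and 0.70 in the second long runs (3xTg 76 to 92 against WT 57 to 74).

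The 2 subunits of the mitochondrial pyruvate carrier differed from each other. *Mpc2* lay between 0 and 9.17 in 3xTg cells (median 7.32) and between 0 and 9.85 in WT cells (median 6.85). Its means were 7.09 ± 1.71 (SD, 33 cells) and 5.57 ± 3.16 (SD, 35 cells), a relative difference of 1.05, and its summed counts of 6881 (95% Poisson interval 6719 to 7046) and 5339 (5197 to 5484) gave a ratio of 0.26. *Mpc1* reached 10.95 in 3xTg (median 7.72) and 10.06 in WT (median 7.80), with means of 7.40 ± 2.36 and 7.48 ± 1.84, a relative difference of -0.55 and a ratio of 0.04. The *Mpc2* difference was 0.62 in thinned cells and 0.42 over only the cells with a count, and it fell below the fold when any 1 of 13 cells was left out, with a lowest value of 0.86 without the cell WT 60.

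All 5 genes of the pyruvate dehydrogenase complex were above the median gene in 3xTg, and *Pdhx*, which binds the E3 component to the core, was past both folds. *Pdhx* spanned 0 to 8.60 in 3xTg, with a median of 5.72, and 0 to 9.20 in WT, with a median of 2.80, and it was counted in 25 cells of each genotype. Its means were 4.90 ± 2.98 (SD, 33 cells) and 3.32 ± 2.91 (SD, 35 cells), a relative difference of 1.10, and its summed counts were 3206 (95% Poisson interval 3096 to 3319) and 1967 (1881 to 2056), a log2 ratio of 0.59. That ratio lay just past the fold and dropped below it when any 1 of 34 cells was left out, to 0.48 without 3xTg 89, and the mean difference was 0.99 without WT 22. *Pdhx* was below both folds in the first long runs (0.46 by the mean, 0.19 by summed counts) and past both in the second (2.05 and 0.82), and its mean difference was 0.69 in the 58 cells without another marker. The E1 subunits *Pdha1* and *Pdhb* had relative differences of 0.40 and 0.41 with ratios of summed counts of 0.16 and -0.38. The means were 6.75 ± 3.07 (SD, 33 3xTg cells) and 5.87 ± 3.46 (SD, 35 WT cells) for *Pdha1*, and 7.76 ± 1.61 and 6.87 ± 3.21 for *Pdhb*. The E2 gene *Dlat* had 0.88 and 0.38, the former past the fold (1.02 to 1.09) when any 1 of 7 cells was left out, and the E3 gene *Dld*, shared with the oxoglutarate dehydrogenase complex, 0.36 and -0.07. The means were 5.93 ± 2.99 and 4.58 ± 3.26 for *Dlat*, and 6.26 ± 2.84 and 5.43 ± 3.26 for *Dld*.

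The kinases that switch the complex off did not share a direction. *Pdk1* lay between 0 and 9.92 in 3xTg cells (median 2.26) and between 0 and 6.63 in WT cells (median 1.39), so most cells of both genotypes held it at a low level. Its summed counts were 1673 (95% Poisson interval 1594 to 1755) in 3xTg and 595 (548 to 645) in WT, a log2 ratio of 1.38, and its means of 3.39 ± 2.69 (SD, 33 cells) and 2.06 ± 2.12 (SD, 35 cells) gave a relative difference of 0.85, below the fold, or 1.01 without WT 65. The cell 3xTg 26 held 32.9% of all *Pdk1* counts in 3xTg, and the ratio without it was 0.84. *Pdk3* had means of 3.03 ± 2.82 and 1.60 ± 2.82 and a relative difference of 0.95, which passed the fold when any 1 of 23 cells was left out (up to 1.15 without WT 14) and was -1.16 over only the 19 3xTg and 9 WT cells with a count. Its ratio was 0.16, and without 3xTg 49 it was -0.10. *Pdk2* had means of 3.58 ± 3.19 and 3.43 ± 3.11, a relative difference of -0.32 and a ratio of 0.09. *Pdk4* had means of 1.86 ± 1.17 and 2.10 ± 1.15, a relative difference of -0.72 and a ratio of -0.45 on summed counts of only 158 and 200. No cell of either genotype held *Pdk4* above 4.19 on the log2 scale. Per kb, *Pdk2* was the leading kinase of the pooled level in both genotypes (49% in 3xTg, 61.8% in WT), followed by *Pdk3* (28.0% and 29.2%) and *Pdk1* (21% and 5.64%). Without the cell 3xTg 26, which held 49.2% of the 3xTg level of *Pdk1*, its share was 11.9%. The order differed by cell, since *Pdk2* led in 15 3xTg and 16 WT cells, *Pdk3* in 8 and 6, *Pdk1* in 6 and 3 and *Pdk4* in 3 and 10. All 4 kinases were counted together in 11 3xTg cells and 3 WT cells.

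*Pcx*, pyruvate carboxylase, which is chiefly an astrocyte enzyme in brain, was counted in 11 of 33 3xTg cells and 9 of 35 WT cells. Its median was 0 in both genotypes and its highest values were 7.95 and 8.27. Its ratio of summed counts was 0.11, and 1 cell of each genotype held 28.3% and 36.8% of its counts; the ratio was -0.32 without 3xTg 38 and 0.73 without WT 57, so its direction rested on single cells. At least 1 of the 5 astrocyte markers was counted in 10 cells of 3xTg and 13 of WT, up to 272 and 2410 CPM in sum, and their part in the *Pcx* counts was not tested.

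Of the 12 genes from citrate to succinate, 3 were past the fold of the mean toward 3xTg and 1 toward WT. *Sucla2* spanned 0 to 11.53 in 3xTg, with a median of 8.61, and 0 to 10.08 in WT, with a median of 7.21. Its means were 7.89 ± 2.62 (SD, 33 cells) and 6.25 ± 3.07 (SD, 35 cells), a relative difference of 1.16. Its summed counts were 15749 (95% Poisson interval 15504 to 15997) and 8026 (7851 to 8204), a log2 ratio of 0.86, which no single left-out cell brought below the fold. In mm10, *Sucla2* lies on the plus strand at chr14:73552786-73596142. *Suclg1*, the subunit that pairs with either *Sucla2* or *Suclg2*, ranged from 0 to 10.21 (median 7.77) in 3xTg and from 0 to 9.70 (median 6.79) in WT. Its means were 7.08 ± 2.61 (SD, 33 cells) and 5.24 ± 3.51 (SD, 35 cells), a relative difference of 1.36, and its summed counts were 9919 (9725 to 10116) and 5733 (5586 to 5883), a log2 ratio of 0.68 that was 0.56 without 3xTg 38. Over only the cells with a count, 31 in 3xTg and 26 in WT, the relative difference of *Suclg1* was 0.30, below the fold, while that of *Sucla2* was 1.16 over its 31 and 31 cells. Both subunits of the ATP-forming succinate-CoA ligase were past both folds over all cells, with ranges that overlapped.

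*Idh2* lay between 0 and 7.53 in 3xTg cells (median 3.97) and between 0 and 8.45 in WT cells (median 0). Its means were 3.03 ± 3.00 (SD, 33 cells) and 1.18 ± 2.48 (SD, 35 cells), a relative difference of 1.38, or 0.79 over only the cells with a count. Its summed counts were 1343 (95% Poisson interval 1272 to 1417) and 866 (809 to 926), a ratio of 0.52 that passed the fold when any 1 of 5 cells was left out and was 1.06 without WT 57, a cell with 33.1% of the WT counts. The 3 subunits of the NAD-dependent isocitrate dehydrogenase, which form 1 enzyme, did not share a direction. *Idh3a* had means of 7.03 ± 2.95 and 6.14 ± 3.64, a relative difference of 0.41 and a ratio of 0.14. *Idh3b* had means of 7.98 ± 1.61 and 7.09 ± 2.79, a relative difference of 0.41 and a ratio of 0.05, whereas *Idh3g* was the 1 gene past the mean fold toward WT, at -1.03. *Idh3g* spanned 0 to 9.69 in 3xTg, with a median of 7.49, and 0 to 10.38 in WT, with a median of 7.72, with means of 6.56 ± 3.12 (SD, 33 cells) and 7.11 ± 2.40 (SD, 35 cells). Its summed counts were 9172 (95% Poisson interval 8985 to 9362) and 9497 (9307 to 9690), a ratio of -0.16, and the relative difference was 0.87 in the second long runs and 0.01 over cells with a count only. It no longer passed the fold when any 1 of 20 cells was left out, with -0.84 without 3xTg 42.

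*Aco1*, the cytosolic aconitase that doubles as an iron-responsive RNA-binding protein, was the 1 gene past the fold of summed counts toward WT. Its summed counts were 589 (95% Poisson interval 542 to 639) in 3xTg and 1359 (1288 to 1433) in WT, a log2 ratio of -1.32. The cell WT 11 held 53.9% of the WT counts, and without it the ratio was -0.23. Over cells *Aco1* ranged from 0 to 7.34 (median 2.10) in 3xTg and from 0 to 10.53 (median 2.03) in WT, with means of 2.72 ± 2.02 (SD, 33 cells) and 2.7 ± 2.35 (SD, 35 cells). Its relative difference was -0.45, below the fold.

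The other genes of these steps were below both folds over all cells. *Cs*, citrate synthase, had a relative difference of 0.50 and a ratio of 0.15, and *Idh1*, with means of 5.75 ± 3.64 and 4.61 ± 3.70, 0.67 and 0.46, the latter 0.67 without WT 9 and 0.64 without WT 72. *Ogdh*, the first component of the oxoglutarate dehydrogenase complex, had the smallest SD of the set, with means of 8.96 ± 0.59 (SD, 33 cells) and 8.95 ± 0.81 (SD, 35 cells). Its relative difference was -0.46 and its ratio -0.23. *Dlst*, the second component, had means of 2.67 ± 3.09 and 2.42 ± 2.95, a relative difference of -0.23 and a ratio of 0.25. That ratio was -0.42 without 3xTg 26, which held 38.6% of the 3xTg counts. It was 0.64, past the fold, without WT 16, which held 25.5% of the WT counts. *Suclg2* had summed counts of 146 and 91, of which the cell 3xTg 43 held 68.5% and the cell WT 74 54.9% of its own genotype's. Its means were 0.46 ± 1.54 and 0.33 ± 1.22, a relative difference of -0.34. Its ratio of 0.57 lay just under the fold, and 33 cells changed that call when left out 1 at a time, with values from -1.07 without 3xTg 43 to 1.69 without WT 74.

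Of the 7 genes from succinate to oxaloacetate, *Sdha* and *Fh1* were past the fold of the mean. *Fh1* had the largest difference of the mean over cells of the 36 genes, though not of summed counts. It lay between 0 and 8.64 in 3xTg cells (median 6.90) and between 0 and 9.66 in WT cells (median 3.18), with means of 6.09 ± 2.60 (SD, 33 cells) and 3.69 ± 3.55 (SD, 35 cells) and a relative difference of 1.92. Its summed counts of 5156 (95% Poisson interval 5016 to 5299) and 3582 (3466 to 3701) gave a ratio of 0.42, below the fold, which was 0.68 without WT 9 and 0.61 without WT 96. Over only the cells with a count, 29 in 3xTg and 21 in WT, the relative difference was 0.60. In mm10, *Fh1* lies on the minus strand at chr1:175601378-175625635.

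*Sdha*, the flavoprotein subunit of succinate dehydrogenase, spanned 0 to 10.62 in 3xTg, with a median of 8.91, and 0 to 10.78 in WT, with a median of 8.05. Its means were 8.42 ± 2.27 (SD, 33 cells) and 6.88 ± 3.41 (SD, 35 cells), a relative difference of 1.06, and its summed counts were 20419 (95% Poisson interval 20140 to 20701) and 13487 (13260 to 13717), a ratio of 0.49. The relative difference was 0.48 over only the cells with a count and below the fold when any 1 of 8 cells was left out, with 0.85 without WT 20. The other 3 subunits of this enzyme, which also serves as complex II of the respiratory chain, had relative differences of -0.52 (*Sdhb*), 0.42 (*Sdhc*) and 0.78 (*Sdhd*), and ratios of -0.04, 0.15 and 0.11. Their means were 8.39 ± 2.32 and 8.43 ± 1.76 (*Sdhb*), 5.83 ± 2.92 and 4.94 ± 3.29 (*Sdhc*), and 7.33 ± 1.84 and 6.07 ± 3.10 (*Sdhd*). *Mdh1* was never below 8.19 in 3xTg (median 11.47) or 6.59 in WT (median 10.85), with means of 11.16 ± 1.12 and 10.63 ± 1.30. It had summed counts of 100716 and 74475, or 2743 and 2189 CPM, a ratio of 0.33 and a relative difference of 0.05. *Mdh2* had means of 9.43 ± 1.15 and 8.90 ± 2.07, 828 and 853 CPM, a ratio of -0.04 and a relative difference of 0.06.

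None of the malic enzymes was past either fold over all cells. *Me1* lay just short of it at a ratio of -0.58 (34.2 CPM in 3xTg and 51.3 CPM in WT), and leaving out any 1 of 39 cells put it past the fold toward WT, to -0.71 without 3xTg 36. The ratio was -0.11 without WT 94, which held 30.4% of the WT counts. By the mean *Me1* had 3.38 ± 2.85 and 2.75 ± 3.04, a relative difference of 0.15. *Me3* had means of 5.23 ± 1.88 and 4.81 ± 2.08, a relative difference of -0.06 and a ratio of 0.08. *Me2* had means of 2.35 ± 2.60 and 1.60 ± 2.38 and a relative difference of 0.27, and the *Me2* ratio of summed counts of 0.23 was 0.85 without WT 14.

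**Figure D4:**
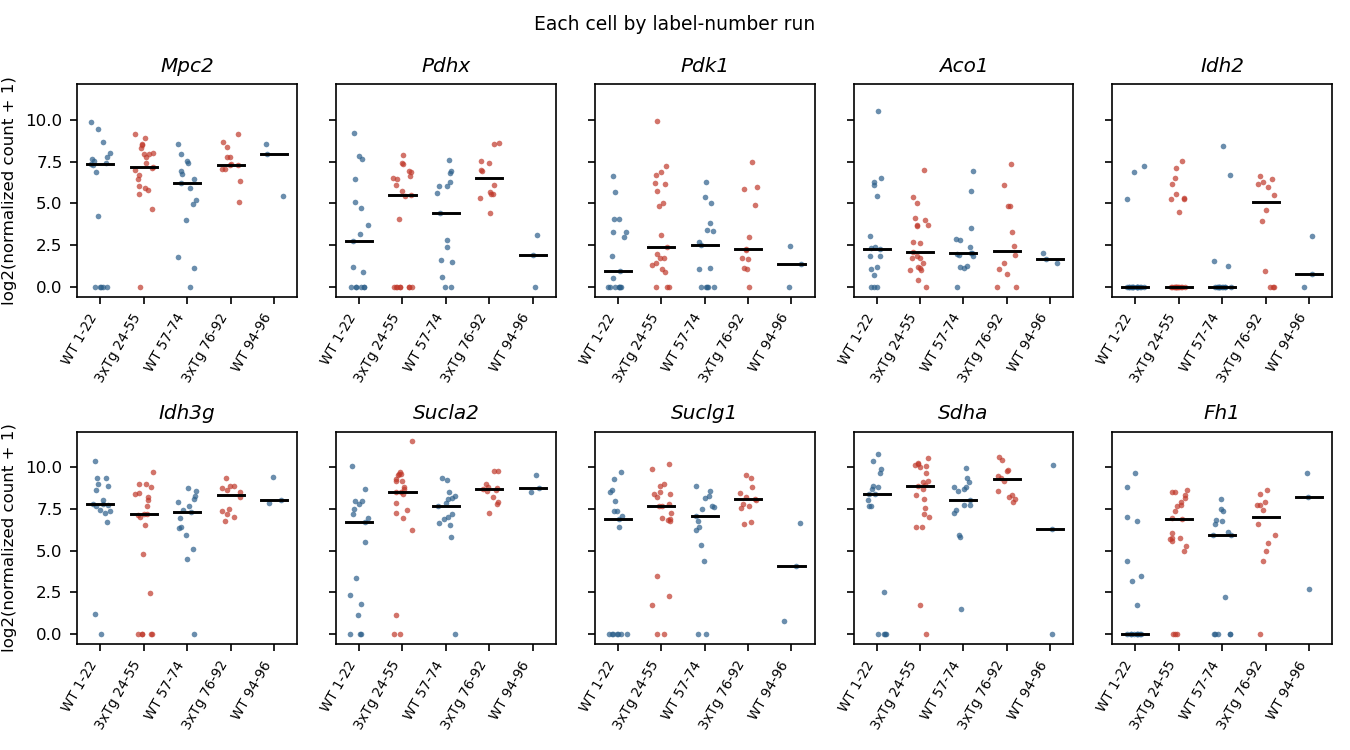
Value of each cell, log2(normalized count + 1), for the 10 enzyme genes past either fold, by label-number run (3xTg red, WT blue; black bars are run medians). Cells of both genotypes overlap for every gene, WT 1 to 22 holds many cells at 0 for *Fh1* and *Suclg1*, and single cells stand far above the rest for *Pdk1* (3xTg 26) and *Aco1* (WT 11).

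The difference between genotypes depended on which runs were compared. In the first long runs, 3xTg 24 to 55 against WT 1 to 22, the ratio of summed counts was thus above 0 for 17 of 36 genes. In the second long runs, 3xTg 76 to 92 against WT 57 to 74, it was above 0 for 30 of 36 genes, against 44.3% of expressed genes, and the median ratio was 0.51. It was above 0 in both pairs for 13 genes, against 27.2%. By the mean over cells, 10 genes were past the fold toward 3xTg in the first runs (17.5% of expressed genes) and 15 in the second (16.8%), while 3 (6.75%) and 2 (21.3%) were past it toward WT. Of the 25 members that were expressed, 8 were past it toward 3xTg in each pair of runs. Relative to the median of the 10752 genes, 8 and 16 of the 36 were past it toward 3xTg, against 14.6% and 20.2% of those genes. Of the genes past it relative to expressed genes, *Mpc2*, *Idh2*, *Suclg1* and *Fh1* were past the mean fold toward 3xTg in both pairs of runs. These were 4 of 36 genes, and 3 of the 25 expressed members, against 5.94% of expressed genes. None was past it toward WT in both, against 2.03%. Relative to the median of the 10752 genes, which were chosen without regard to genotype, 3 were past it in both, against 4.87% of them. *Idh2* was at 1.01 and 2.08, *Fh1* at 2.94 and 1.43, *Suclg1* at 1.47 and 1.27 and *Mpc2* at 1.09 and 1.44.

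By summed counts, 7 genes were past the fold toward 3xTg in the first runs (20.7% of expressed genes) and 12 in the second (13.7%), and 3 (11.6%) and 2 (30.1%) were past it toward WT. Among the 10752 genes, 31.7% were past it toward 3xTg in the first runs and 19.1% in the second, and 20.2% and 34% toward WT. None of the 36 was past it in both pairs of runs, against 3.76% of expressed genes toward 3xTg and 4.59% toward WT. *Sucla2* was at 1.55 and 0.54, *Suclg1* at 0.65 and 0.57 and *Pdk1* at 1.75 and 0.45. Several genes took opposite signs by the mean, among them *Pdha1* (-1.10 in the first runs, 2.41 in the second), *Idh3g* (-2.02 and 0.87), *Cs* (-0.75 and 1.88), *Sdhb* (-1.39 and 0.23) and *Pcx* (1.02 and -1.57). For 25 of the 36 genes, the difference between the long runs of at least 1 genotype was larger than the difference between the genotypes, which also held for 71.5% of expressed genes and 75.4% of the 10752 genes. The median number of genes with a count was 5233 in WT 1 to 22, 7648 in 3xTg 24 to 55, 8441 in WT 57 to 74 and 9308 in 3xTg 76 to 92, and the part of these gaps in the differences was not tested.

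The whole set took 1.18% of all counts in 3xTg and 1.05% in WT. Summed over the 36 genes, a 3xTg cell held 5926 to 15591 CPM (median 11868) and a WT cell 4645 to 18189 CPM (median 9581). By run, the medians were 10957 CPM in WT 1 to 22, 11013 in 3xTg 24 to 55, 8665 in WT 57 to 74, 12792 in 3xTg 76 to 92 and 9585 in WT 94 to 96. The 2 early runs were thus close together, and the later runs lay apart, with 3xTg 76 to 92 above WT 57 to 74 in the median but with overlapping cells. *Mdh1* alone gave 23.3% of the set's counts in 3xTg and 20.9% in WT, and *Mdh1* and *Ldhb* together gave 39.1% and 37.2%.

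A cell held counts of a median of 30 of the 36 genes in 3xTg (16 to 34) and 27 in WT (18 to 36). The number detected followed the number of all genes detected in the cell, with a Pearson r of 0.87 over 68 cells, whereas r with the summed level was -0.02, from -0.44 over the 12 cells of 3xTg 76 to 92 to 0.14 over the 15 of WT 57 to 74; both are descriptions over cells that share their library and depth. The oxidative steps from citrate synthase to malate dehydrogenase, taken as 15 mitochondrial genes, were all counted together in 14 of 33 3xTg cells (42.4%, 95% Clopper-Pearson interval 25.5 to 60.8%) and 8 of 35 WT cells (22.9%, 10.4 to 40.1%). All 5 genes of the pyruvate dehydrogenase complex were counted together in 19 3xTg cells and 14 WT cells, all 4 of succinate dehydrogenase in 26 and 21, and both of the ATP-forming succinate-CoA ligase in 29 and 24. In 3xTg 76 to 92, every one of the 12 cells held all 4 succinate dehydrogenase genes, all 3 *Idh3* genes and both carrier genes, and in WT 57 to 74 these counts were 12, 12 and 14 of 15 cells. They were 14, 15 and 18 of 21 cells in 3xTg 24 to 55 and 7, 10 and 12 of 17 in WT 1 to 22, the same order as that of the runs' median genes detected.

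**Figure D5:**
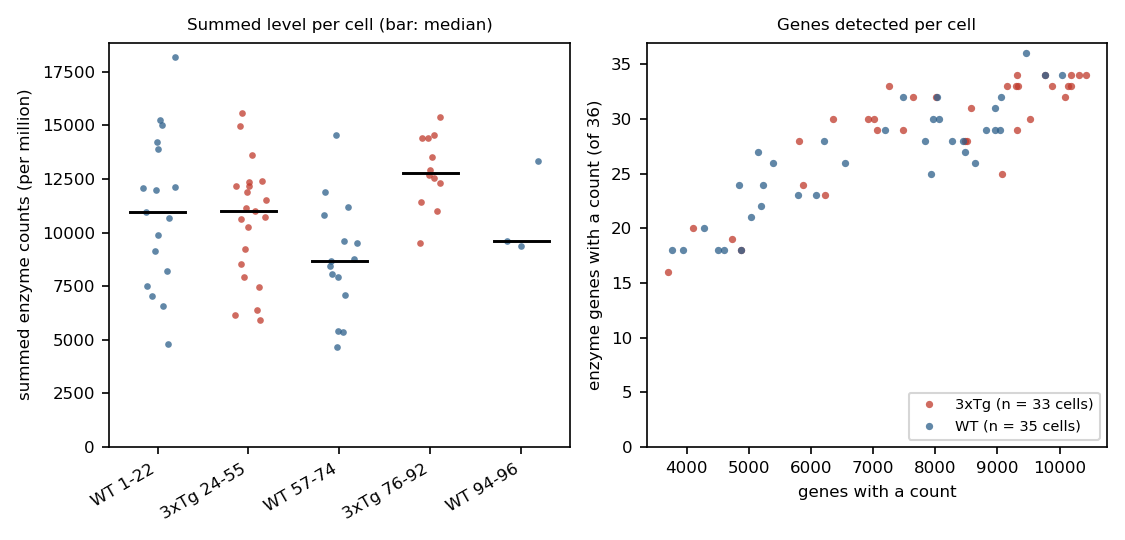
Left, summed CPM of the 36 enzyme genes in each cell by label-number run (3xTg red, WT blue; black bars are medians), with 3xTg 76 to 92 at a median of 12792 and WT 57 to 74 at 8665. Right, number of enzyme genes with a count against the number of all genes with a count in each cell, which rise together (r of 0.87 over 68 cells).

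Over the 68 cells, pairs of enzyme genes were weakly related, with a median Pearson r of 0.15 over 630 pairs on the log2 scale. The closest pair was *Ldhb* and *Mdh1* (r of 0.72), followed by *Pdhx* and *Cs* (0.64) and *Ldhb* and *Mpc1* (0.64). The most opposed was *Ldhb* and *Pdk4* (-0.53), followed by *Mdh1* and *Pdk4* (-0.51). These values describe cells that share depth and scaling, and *Pdk4* rests on few counts.

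Promoter sequences of 33 of the 36 genes were found in RefSeq (GRCm38.p6), each spanning 250 bases before to 50 after a transcription start; *Idh3a*, *Sdhc* and *Me2* were not matched. They were searched on both strands for 4 motifs of factors known to act on nuclear genes for mitochondrial or glycolytic enzymes. The NRF1 core (GCGCATGC) was found for 2 genes (6.06%, against 3.05% of 27025 genes), the ERR motif (TCAAGGTCA) for 1 (3.03%, against 0.466%), the YY1 motif (AAGATGGCG) for 1 (3.03%, against 1.64%) and the HIF core (ACGTG) for 10 (30.3%, against 21.8%). The 4 windows of the 3 longer motifs are shown 5′ to 3′ on the gene's strand, with the motif or its reverse complement in capitals, because they hold the only matches of these motifs in the windows searched and place them relative to the genes. A match is a description of letters and not of binding.
*Ogdh* (NRF1 core, chr11:6292533-6292560, plus strand): taggtgttgtGCGCATGCgtaactcaac
*Sdhb* (NRF1 core, reverse complement, chr4:140961207-140961234, plus strand): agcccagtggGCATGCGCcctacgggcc
*Sdhd* (ERR, reverse complement, chr9:50603800-50603823, minus strand): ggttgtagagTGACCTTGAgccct
*Idh3g* (YY1, chrX:73787009-73787037, minus strand): tcccctccccAAGATGGCGgaacagtgct
The 4 genes had no shared direction between genotypes, with relative differences of -0.46 (*Ogdh*), -0.52 (*Sdhb*), 0.78 (*Sdhd*) and -1.03 (*Idh3g*), the last of which was 0.87 in the second long runs. The HIF core was found for *Ldha*, *Pdhb*, *Pdk2*, *Pdk3*, *Pcx*, *Idh3g*, *Ogdh*, *Sdha*, *Mdh1* and *Me1*.

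Neighbouring steps of metabolism were counted by the same folds, beside the shares of expressed genes given above (13.1% and 6.04% by the mean, 9.88% and 13% by summed counts). Of 6 genes that service the pyruvate dehydrogenase complex, 0 were past the mean fold toward 3xTg and 1 toward WT, *Pdpr*, a regulator of its phosphatase, with a relative difference of -1.13. *Pdpr* was not among the expressed genes and was counted in only 5 3xTg and 9 WT cells. Its difference was -0.65 before the median gene was taken off. By summed counts 2 of the 6 genes were past the fold toward 3xTg and 1 toward WT. Of 10 genes of pyruvate and acetyl supply, 1 was past it toward 3xTg, *Acly*, which splits exported citrate into acetyl-CoA (1.96; ratio of summed counts 0.65), and 0 toward WT, while summed counts placed 4 toward 3xTg and 2 toward WT. Of 14 genes of shuttles and anaplerosis, 3 were past it toward 3xTg and 0 toward WT, while summed counts placed 3 toward 3xTg and 4 toward WT. The 3 by the mean were *Glud1*, glutamate dehydrogenase (2.11; ratio 1.13), *Got1*, cytosolic aspartate aminotransferase (1.37; ratio 0.57), and *Slc25a12*, a mitochondrial aspartate-glutamate carrier (1.20; ratio 0.95).

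The 13 glycolytic genes had 3 past the mean fold toward 3xTg and 0 toward WT, with a median relative difference of 0.35, and the 43 counted complex I genes had 3 and 0, with a median of 0.28. The median was 0.40 for the 36 enzyme genes. By summed counts, 5 glycolytic genes were past the fold toward 3xTg and 1 toward WT, with a median ratio of 0.47, against 2 and 0 complex I genes with a median of 0.13 and a median of 0.15 for the 36 enzyme genes. No difference between the lists was tested. They also differed between the runs, since the ratio of summed counts was above 0 for 8 of 13 glycolytic and 19 of 43 complex I genes in the first long runs, and for 12 and 36 in the second.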

How the data were processed

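Single-cell libraries were made by the authors from poly-A RNA with a low-input kit and 28 PCR cycles. Per the study's methods, reads were trimmed by 5 bases at each end, aligned with at least 90% identity to RefSeq transcripts of mm10 (Strand NGS 4.0), and duplicates were removed. The deposited table holds estimated counts per gene and cell (55.3% of values above 0 were not whole, tolerance 0.001), and the authors' log2 values after DESeq2 normalization. The study kept cells positive for *Th*, *Slc6a3* and *Slc18a2* and negative for *Pvalb*, *Tmem119*, *P2ry12* and *Aldh1l1*, so the levels of these genes are no finding.

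Counts were scaled with median-of-ratios size factors in Python 3.11.15 (numpy 2.4.6, pandas 2.3.3, scipy 1.17.1) and log2-transformed with a pseudocount of 1. Summed counts were rounded per cell and given as CPM with exact Poisson intervals at 95%, which cover no spread between cells or mice. A count of at least 1 was a detection. With 1 sample per genotype no test was run. Scripts were tested on simulated data. Exon lengths came from GENCODE vM21 on GRCm38. Counting did not state strand use, and 7 members overlap another gene (*Mpc1*, *Pdha1*, *Pcx*, *Idh3b*, *Sdhd*, *Me1*, *Me3*).

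All 36 members are named. Members and lists were chosen with earlier results of these data known. Means with SDs and both differences are given for members past a fold, for isozyme or subunit sets and for the 3 largest and smallest differences, and summed counts with intervals for members past a fold. Alternatives were CPM or TMM scaling (edgeR 4.0.16 in R 4.3.3), pseudocounts of 0.1 and 10, no filter, thinning, other cell subsets, the deposited normalized values and leaving out each cell. Medians in place of means over cells, and only the cells with a count, were also used. The list of accessory genes of the cycle and 1 transgene's name are not reported here.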

Additional observations from a re-analysis of the deposited data

How the results depend on the processing

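No paired analysis was possible because the 2 genotypes share no label numbers and each is 1 sample. Of the 36 enzyme genes, the 7 past the mean fold toward 3xTg became 11 with a pseudocount of 0.1, 2 with 10, 12 with no filter on low genes and 15 in the second long runs; the 1 toward WT became 2 with a pseudocount of 0.1, 3 in the first and 2 in the second long runs, and 0 with TMM factors, a pseudocount of 10, no filter, cells without a count of *Pvalb*, *Tmem119*, *P2ry12* or *Aldh1l1* (58 cells) and cells with at least 5000 genes (57 cells). By summed counts, the 4 toward 3xTg became 7 in the first and 12 in the second long runs, and the 1 toward WT became 3 in thinned cells, 3 in the first and 2 in the second long runs, 2 without cells holding those markers and 2 with at least 5000 genes. Leaving out each cell in turn, chosen after seeing the data, gave 6 to 9 and 0 to 1 by the mean, and 3 to 6 and 1 to 2 by summed counts. Among genes past a fold, the *Idh3g* difference turned to 0.87 in the second long runs and 0.010 over cells with a count; *Pdk3*, past neither fold, turned from 0.95 to -1.16 over the latter. With medians in place of means over cells, *Mpc2* (0.13), *Suclg1* (0.64), *Sdha* (0.52) and *Idh3g* (-0.57) were no longer past the fold of 2. *Pdhx* (2.59), *Idh2* (3.63), *Sucla2* (1.06) and *Fh1* (3.37) remained past it, and *Dlat* (1.25), *Pdk3* (3.61) and *Me1* (1.72) newly were. The median relative difference ran from 0.08 (first long runs) to 0.85 (second), and 0.30 to 0.51 with 1 cell left out, and that of summed counts from -0.03 to 0.51 (0.11 to 0.19). Apart from the fewer cells or different filter of each setting, the cause was not tested. The median expressed gene shifted by 0.13 to 0.60 between settings. With genes counted in at least 25% of all cells as background, chosen after seeing the data, 7 and 1 genes were past the mean fold, against 11% and 4.69%.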
